A study of Mus musculus with 2 samples.

Results

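The genes described are 10 that mark or set the epithelial and mesenchymal states of a cell: Cdh1, Epcam, Cldn4, Cldn6 and Tjp1 on the epithelial side, Cdh2 and Vim on the mesenchymal side, and the transcriptional repressors Snai1, Zeb1 and Zeb2. They were chosen by symbol and not by a rule on measured values, though earlier results of these data were known. Every probe set annotated with exactly 1 of these symbols was taken, which gave 21 probe sets for 10 of the 18193 genes on the array. No probe set with several symbols listed any of them. The cells were E14, an embryonic stem cell line of the mouse, at passage 9 and grown on gelatin in medium with 15% fetal bovine serum and 1000 units per ml of leukemia inhibitory factor. The control group (shCtrl) was infected with a lentivirus that expresses a non-targeting shRNA, and the knockdown group (shSin3a-1) with one that expresses an shRNA against Sin3a, the scaffold of a histone deacetylase corepressor complex; both groups were selected with puromycin. Each group was 1 array, and 1 shRNA was used, so that no difference below has a replicate check and no p-value or error over samples can be given.

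Epithelial cells hold together through E-cadherin (Cdh1) and EpCAM (Epcam) at the cell surface and through tight junctions, in which claudins form the seal and ZO-1 (Tjp1) links it to actin. In an epithelial to mesenchymal transition, repressors of the Snail and ZEB families bind E-box sequences in promoters of epithelial genes, E-cadherin gives way to N-cadherin (Cdh2), and the intermediate filament protein vimentin (Vim) becomes abundant. Snail is known to recruit the Sin3a complex and its histone deacetylases to the E-cadherin promoter. Mouse embryonic stem cells carry E-cadherin and EpCAM, which are lowered when they leave pluripotency through the primitive streak. The comparison asks which of these genes differ in messenger RNA when Sin3a is depleted.

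The promoter sequences below are shown because they hold, or lack, the E-box bound by the members that are repressors. The letters searched were CAGGTG on either strand; a match on the opposite strand reads CACCTG on the gene's own strand. The windows ran from 250 bases before to 50 bases after each start site, and were taken from RefSeq on GRCm38.p6 and matched by symbol. Of the 10 genes 7 had a window, and together they had 10 windows; windows of Cdh1, Cdh2 and Zeb1 were not used here. The windows are given 5′ to 3′ on the gene's strand, with the E-box in capitals. That of Epcam lies at chr17:87635729-87636028 (plus strand), that of Cldn4 at chr5:134946885-134947184 (minus strand), that of Cldn6 at chr17:23679115-23679414 (plus strand) and that of Vim at chr2:13574061-13574360 (plus strand).
Epcam: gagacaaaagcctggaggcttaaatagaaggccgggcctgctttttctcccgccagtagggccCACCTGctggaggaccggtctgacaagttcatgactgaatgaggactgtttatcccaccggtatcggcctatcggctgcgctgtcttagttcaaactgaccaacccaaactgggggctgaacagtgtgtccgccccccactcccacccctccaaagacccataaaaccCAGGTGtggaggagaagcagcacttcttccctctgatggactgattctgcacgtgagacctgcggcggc
Cldn4: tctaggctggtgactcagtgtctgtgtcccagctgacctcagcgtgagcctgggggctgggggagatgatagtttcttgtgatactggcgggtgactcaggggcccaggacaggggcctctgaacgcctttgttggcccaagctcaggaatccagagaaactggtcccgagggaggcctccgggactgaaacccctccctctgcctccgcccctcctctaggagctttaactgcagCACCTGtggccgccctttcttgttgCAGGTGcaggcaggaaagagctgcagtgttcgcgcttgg
Cldn6: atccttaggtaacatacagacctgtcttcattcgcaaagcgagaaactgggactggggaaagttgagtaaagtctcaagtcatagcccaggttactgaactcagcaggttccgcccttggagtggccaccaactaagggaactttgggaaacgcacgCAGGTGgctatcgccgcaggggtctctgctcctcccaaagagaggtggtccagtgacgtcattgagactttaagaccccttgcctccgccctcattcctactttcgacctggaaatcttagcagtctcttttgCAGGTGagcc
Vim: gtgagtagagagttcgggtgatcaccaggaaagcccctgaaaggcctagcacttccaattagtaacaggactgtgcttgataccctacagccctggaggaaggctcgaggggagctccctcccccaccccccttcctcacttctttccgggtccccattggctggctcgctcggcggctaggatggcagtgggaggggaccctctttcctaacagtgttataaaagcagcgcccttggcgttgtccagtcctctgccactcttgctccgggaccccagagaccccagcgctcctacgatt

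The windows of Epcam, Cldn4 and Cldn6 each held 2 matches, Snai1 held 1, and none was found in the windows of Tjp1, Vim or Zeb2, the last of which had 4 start sites. In Epcam the matches began at bases -187 and -19 from the start site, in Cldn4 at -14 and 12, in Cldn6 at -93 and 41, and in Snai1 at -126. Over all genes, 20.2% of 32851 windows held at least 1 match and 2.88% held 2 or more. A match is a description of the letters and does not show that a factor binds there.

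**Figure D1:**
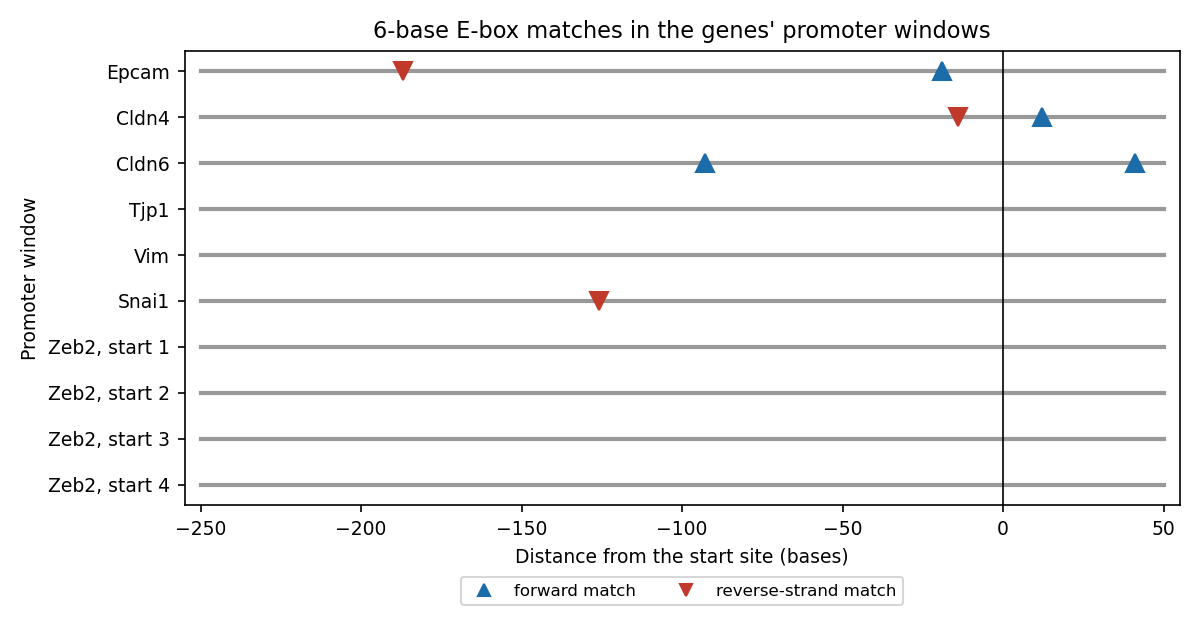
E-box matches (triangles) along the promoter windows of the 7 genes with a window used here, by distance from the start site in bases. Upward triangles are forward matches and downward triangles matches on the reverse strand. Epcam, Cldn4 and Cldn6 have 2 matches each, Snai1 has 1, and Tjp1, Vim and the 4 windows of Zeb2 have none.

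The values are MAS5 signals, an intensity on a linear scale, kept as deposited. A log2 difference is the log2 signal of shSin3a-1 minus that of shCtrl. A probe set was kept where its brighter signal reached the 60th percentile of that array (131 in shCtrl, 126 in shSin3a-1), and a signal under the 40th percentile (46.8 and 41.7) was treated as no more than a bound. Sin3a itself was lower in all 3 of its probe sets, at 3072 and 534 in the brightest, 17.4% of the control level. The pluripotency factor Pou5f1 had signals of 8989 and 8619. All 14 embryonic stem cell markers were kept and, read by each gene's brightest probe set, lay within 2-fold. The marker Esrrb had 3 kept probe sets that disagreed, with log2 differences from -0.72 to 1.07. The 3′ to 5′ signal ratio, which rises as RNA degrades, was 0.824 and 0.809 for Gapdh and 1.46 and 1.33 for Actb. The control probe sets for 18S ribosomal RNA were higher in shSin3a-1, with log2 differences of 1.01 to 1.81; their part in the results below was not tested.

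Of the 21 probe sets 12 were kept, and they measured 8 of the 10 genes. Of these 12 probe sets, 1 was 2-fold or more higher in shSin3a-1, none was 2-fold or more lower, and 11 lay within 2-fold. Over all 17086 kept probe sets with 1 symbol, 3.48% were 2-fold or more higher and 2.58% were 2-fold or more lower, and counts of 1 and 0 among 12 are too small to be told apart from these shares. The median log2 difference was -0.32 over the 12 and 0.0028 over all kept probe sets. Of the 12 kept probe sets, 3 (Cldn6, the kept one of Cdh2 and 1446127_at of Zeb1) reached the filter only on the control array, so the filter itself set their place below 0. The medians over kept probe sets are therefore descriptions, from which no direction of the group is read. In bulk RNA, a smaller share of cells that make a transcript and less of it per cell cannot be told apart.

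**Figure D2:**
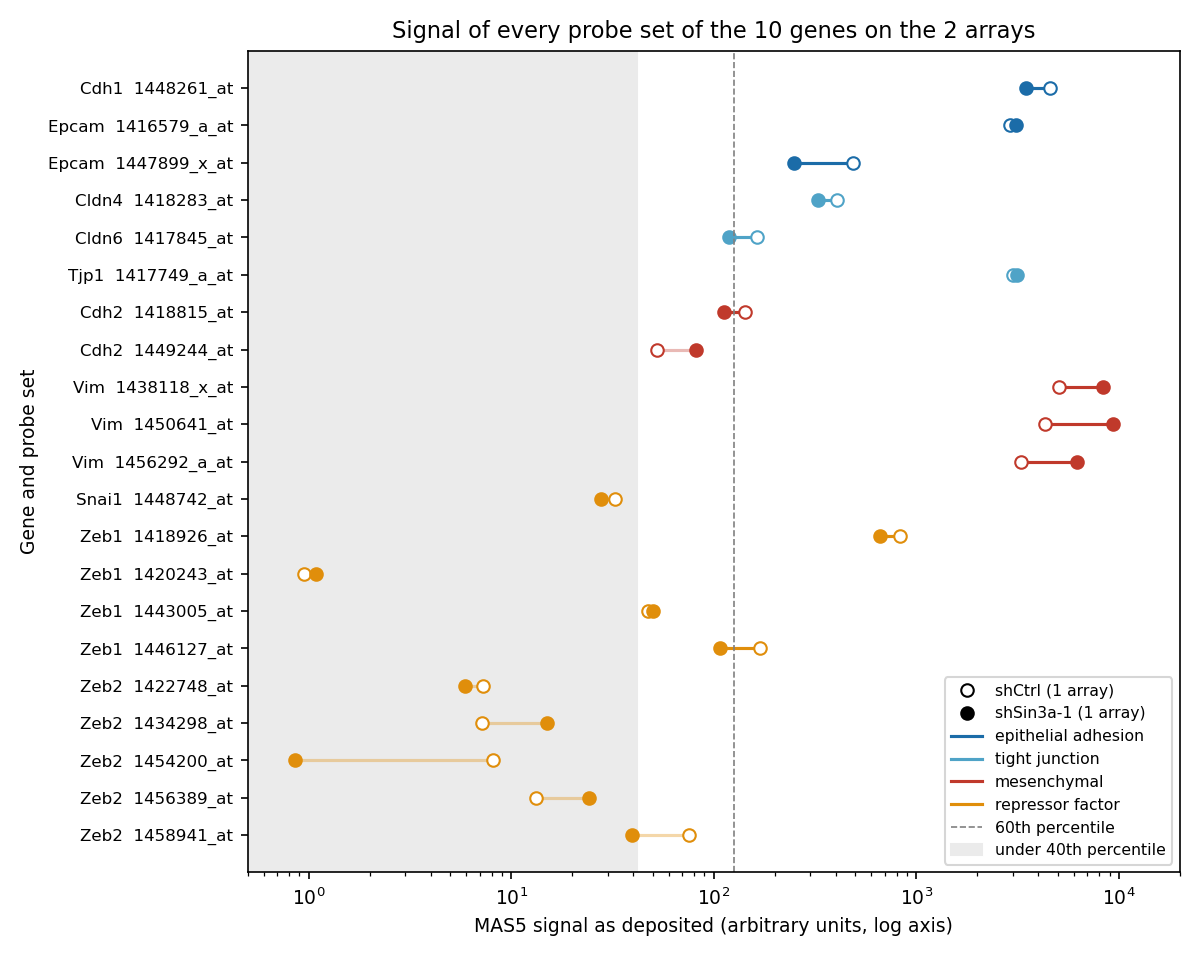
MAS5 signal (log axis) of all 21 probe sets of the 10 genes, with open circles for the shCtrl array, filled circles for the shSin3a-1 array, colours for the role of the gene and faint lines for probe sets that were not kept. The dashed line and the edge of the grey area stand at the 60th and 40th percentile of the shSin3a-1 array; all 3 Vim probe sets lie to the right in shSin3a-1, while Snai1, 4 of 5 Zeb2 probe sets and 1 Zeb1 probe set lie in the grey area on both arrays.

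How far a difference stands out depended on the signal. Among kept probe sets between the 60th and 75th percentile of signal, 11.8% were at 2-fold or more in either direction, against 4.01% between the 75th and 90th and 1.08% above the 90th. The range from the 5th to the 95th percentile of the log2 differences narrowed likewise, from -1.02 to 1.12 in the dimmest of these classes, through -0.66 to 0.81, to -0.47 to 0.56 in the brightest. These ranges hold real differences as well as noise and serve as a description only. Of the 12 kept probe sets of the 10 genes, 3 lay above the range of their class, 1 lay below it and 8 lay within it.

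Cdh1, the adhesion receptor of epithelial junctions, was somewhat lower in the knockdown. Its single probe set (1448261_at) read 4570 in shCtrl and 3471 after knockdown (log2 difference -0.40), which leaves 75.9% of the control signal. It is in the brightest class, where 347 of 4341 probe sets were as low or lower, so that the value is near the lower edge of the class and inside its range.

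Epcam, a surface glycoprotein of epithelia and embryonic stem cells, was measured by 2 probe sets that disagreed. The brighter one (1416579_a_at) read 2913 in the control and 3096 after knockdown (log2 difference 0.09). The dimmer one (1447899_x_at) had 486 and 250, a difference of -0.96, and lay below the range of its class, in which 116 of 6655 probe sets were as low or lower. Its suffix (_x) marks a probe set that may also detect other transcripts. Over 4413 genes with more than 1 kept probe set, single probe sets had an SD of 0.39 about their gene's mean. This SD does not measure the gap between 2 probe sets, so the Epcam gap is not ranked by it. No single direction for Epcam can be read from these values.

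The tight junction genes among the 10 all lay within 2-fold. Tjp1, the ZO-1 scaffold, read 3020 in the control and 3161 after knockdown (log2 difference 0.07). Cldn4, a claudin of the blastocyst's outer epithelium and of many adult epithelia, had 407 and 326 (-0.32). Cldn6, a claudin of early epithelia, had 163 and 119 (-0.46), so that only its control value reached the 60th percentile. Both claudins were lower in shSin3a-1 by amounts well inside the range of their dim class, in which 1749 (Cldn4) and 1278 (Cldn6) of 6090 probe sets were as low or lower. Over the 6 epithelial probe sets, all of which were kept, none was at 2-fold, 4 lay below 0 (Cldn6 among them) and the median was -0.36.

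Vim, the intermediate filament gene of mesenchymal cells, was higher in the knockdown in all 3 of its probe sets. Probe set 1450641_at read 4321 in the control and 9348 after knockdown, 2.16-fold higher (log2 difference 1.11). Probe set 1456292_a_at had 3298 and 6241, 1.89-fold higher (0.92). Probe set 1438118_x_at, the brightest by mean log2 signal, had 5078 and 8401, 1.65-fold higher (0.73). Like the dimmer Epcam probe set it has the suffix _x and may also detect other transcripts. All 3 thus agree in direction and differ in size, and 2 of them were annotated with the same expressed sequence tag (AV147875), so they are not independent measurements.

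The Vim differences stood out among probe sets of like brightness. Of the 4341 probe sets in the brightest class, 19 were as high as 1450641_at or higher, 43 as high as 1456292_a_at and 103 as high as 1438118_x_at. The 3 values spread over 0.73 to 1.11, while the SD of single probe sets about their gene's mean was 0.22 over 920 genes with more than 1 probe set in this class. Under 5 scalings of the arrays the lowest Vim value was 0.72 and the highest 1.22. The scalings moved values too little to turn differences of this size, so they are no check of the direction.

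**Figure D3:**
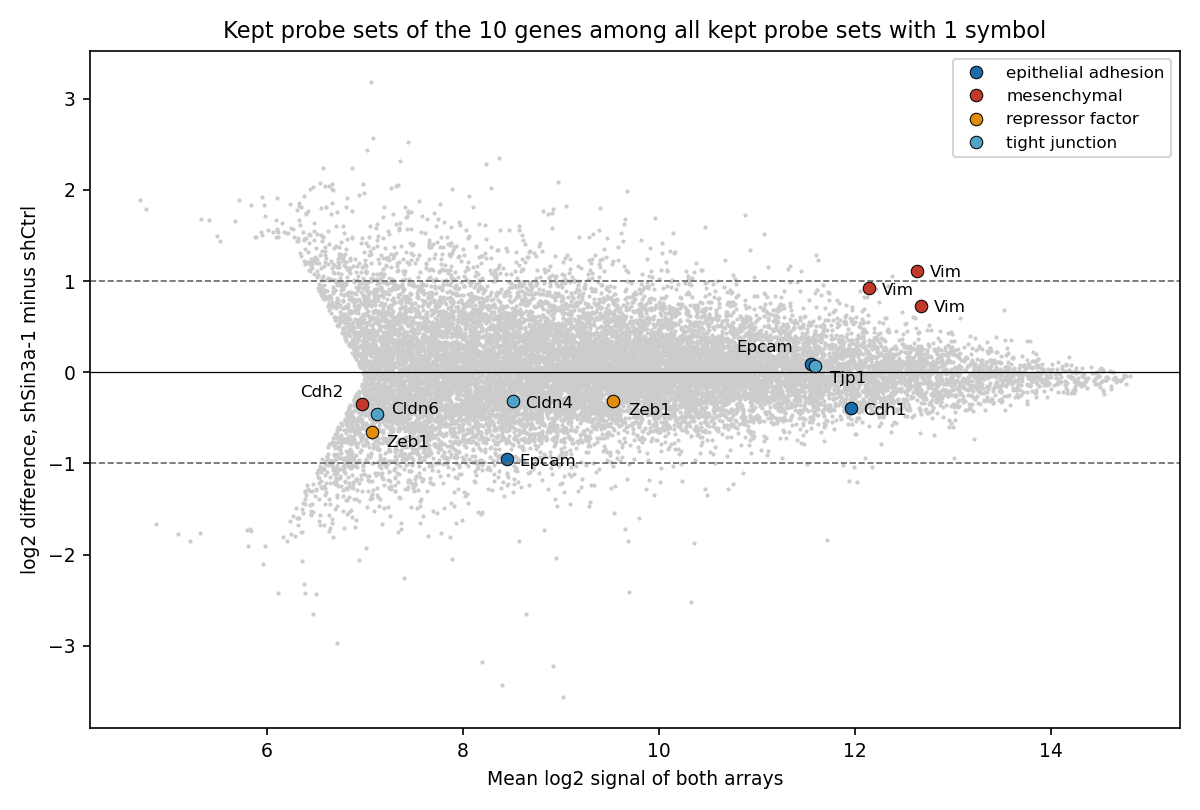
log2 difference (shSin3a-1 minus shCtrl) against mean log2 signal for all 17086 kept probe sets with 1 symbol (grey) and the 12 kept probe sets of the 10 genes (coloured by role, named); dashed lines mark 2-fold. The 3 Vim points lie at 0.73 to 1.11 above the bright end of the cloud, and the other 9 points lie within 2-fold.

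N-cadherin was dim, and its probe sets disagreed. Cdh2, the cadherin of mesenchymal and neural cells, read 142 in the control and 112 after knockdown in the kept probe set (1418815_at), a difference of -0.34 on the log2 scale. Its other probe set (1449244_at) had 52.3 and 81.7, a difference of 0.64, and did not reach the filter. Both probe sets were annotated with the same complementary DNA (BC022107), and they lie on opposite sides of 0.

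Of the 3 repressors Zeb1 alone had kept probe sets. Zeb1, a zinc finger and homeodomain repressor of Cdh1, was lower in both of its kept probe sets. Its brightest (1418926_at) read 827 in the control and 666 after knockdown (log2 difference -0.31), and 1446127_at had 169 and 107 (-0.66), both inside the range of their classes. Of these, 1446127_at reached the filter only on the control array, which set its direction. Of the other Zeb1 probe sets, 1443005_at had 47.5 and 50.1, just above the floor, and 1420243_at had 0.947 and 1.09, under it on both arrays.

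Snai1, the Snail repressor, had a single probe set (1448742_at) with signals of 32.5 in the control and 27.9 after knockdown, under the floor on both arrays, and no fold is given. Zeb2, the second ZEB repressor, had 5 probe sets, of which none was kept and 4 were under the floor on both arrays, with signals of 0.851 to 24.2. The fifth (1458941_at) had 75.2 in shCtrl, above the floor, and 39.7 in shSin3a-1, under it, which makes it at least 1.80-fold lower; both values are below the filter. For Snai1 and the other 4 Zeb2 probe sets the array gives an upper limit to the signal and no difference. Over the 6 kept mesenchymal and repressor probe sets the median was 0.21, and 3 of the 6 are Vim. Of the other 3, those of Cdh2 and 1446127_at of Zeb1 reached the filter only on the control array, while the Cdh2 and Zeb1 probe sets below the filter with a difference lay above 0, at 0.64 and 0.08.

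All 12 kept probe sets had the same direction under the 5 scalings of the arrays. The filter had set that direction for the 3 that reached it only on the control array. The scalings moved each value little, so a difference far from 0 could not change sign under them. The smallest values, those of Tjp1 (0.05 to 0.17) and of the brighter Epcam probe set (0.07 to 0.20), moved with the scaling by more than their own lowest size.

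Further genes of the same processes were taken from lists of related genes and read by each gene's brightest probe set. Over all 9782 kept genes read in this way, 1.70% were 2-fold or more higher and 2.79% were 2-fold or more lower, and the median log2 difference was -0.03. The balance of directions thus differed from that over probe sets, where higher ones were the more frequent.

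Catenins tie cadherins to actin. Of 5 kept genes among 11 cadherins and catenins none was at 2-fold, and the median was -0.22. Ctnnb1 (beta-catenin) read 14215 in the control and 15771 after knockdown (log2 difference 0.15), and Ctnna1 (alpha-catenin) had 12098 and 11417 (-0.08, and 0.03 when the arrays were centred on their medians). Their probe sets differed in size, from 0.15 to 0.77 over 3 kept for Ctnnb1 and from -0.75 to 0.04 over 3 kept for Ctnna1. Ctnnd1 (p120-catenin) was at -0.22, the placental cadherin Cdh3 at -0.37 and Jup (plakoglobin) at -0.63, with signals of 661 and 427. The other cadherins of this list, such as those of endothelium and bone, did not reach the filter.

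Tight junction and polarity genes were mixed. Of 21 kept genes, Nectin3, an adhesion molecule of adherens junctions, was 2.08-fold higher (874 in shCtrl and 1816 in shSin3a-1), and all 3 of its kept probe sets lay above 0, from 0.63 to 1.06. Marveld3, a tight junction membrane protein, was 2.72-fold lower (146 and 53.6) in the 1 of its 3 probe sets that was kept, which reached the filter only on the control array. The other 19 were within 2-fold and the median was 0.07; occludin (Ocln) was at 0.02 and F11r, junctional adhesion molecule A, at 0.49. Of 17 genes on a list of other claudins, which includes a claudin domain protein, 3 were kept, all within 2-fold, with Cldn7 at 0.14; Cldn3 did not reach the filter, with 61.5 in shCtrl and under the floor in shSin3a-1.

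Most of the kept simple keratin and desmosome genes lay below 0. Of 7 kept genes 1 was 2-fold or more lower and 5 lay below 0, with a median of -0.50, or -0.39 with median centring. With 75th percentile, quantile and loess scaling 6 of 7 lay below 0. Over all 9782 kept genes 2.79% were 2-fold or more lower, and over all kept probe sets 8494 of 17086 lay below 0. Counts among 7 genes are too small to be told apart from these shares. Krt18, the type I keratin of simple epithelia, read 541 in the control and 231 after knockdown (log2 difference -1.23). Its partner Krt8 had 936 and 522 (-0.84), and its 3 kept probe sets were all lower, from -1.85 to -0.52. Desmoplakin (Dsp) was at -0.12. Krt8 and Krt18 also stand on the list of markers of trophectoderm, the outer epithelium of the blastocyst. Of its 12 markers 4 were kept: Krt8, Krt18, the transcription factor Tfap2c (2.37-fold lower, -1.25) and Tead4, a transcription factor that was higher (208 in shCtrl and 244 in shSin3a-1, 0.23). The summed signal of the list was 3128 in shCtrl and 1913 in shSin3a-1. The defining markers Cdx2, Elf5, Gata3 and Hand1 did not reach the filter on either array; Cdx2 (8.61 and 70.0) and Ascl2 (8.20 and 68.3) were under the floor in shCtrl and above it in shSin3a-1. The part of these cells in the Krt8, Krt18 and Cldn4 values was not tested.

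Regulators of the epithelial state gave 1 gene past 2-fold. Of 11 kept regulators and surface genes, Grhl2, a transcription factor that activates Cdh1 and claudin genes, was 2.43-fold lower, at 240 in the control and 98.7 after knockdown, in the 1 of its 4 probe sets that was kept, which reached the filter only on the control array. The other 10 were within 2-fold, 5 of the 11 lay above 0, and the median was -0.01 (0.10 with median centring). The splicing factor Esrp1 (71.6 and 54.9) and the repressor of mesenchymal genes Ovol2 (52.8 and 40.7) did not reach the filter.

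Other transcription factors of the transition were mostly too dim. Of 15 on the array 3 were kept and none was at 2-fold by its brightest probe set. Hmga2, a chromatin protein that induces Snai1, was 1.65-fold higher (350 in the control and 577 after knockdown); its 3 kept probe sets lay above 0, from 0.72 to 1.25, the highest of them past 2-fold. Snai2 (66.9 in shCtrl and 107 in shSin3a-1) and Twist1 (58.6 and 59.8) did not reach the filter.

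Genes of the mesenchymal matrix and cytoskeleton went both ways. Of 14 kept genes Vcan, the proteoglycan versican, was 2.07-fold higher (467 in shCtrl and 965 in shSin3a-1), with all 3 kept probe sets above 0, from 1.05 to 1.48. The matrix protease Mmp2 was 2.30-fold lower (309 and 134) and the collagen crosslinking enzyme Loxl1 was 2.26-fold lower (181 and 80.0), the latter at the filter only on the control array. By brightest probe set the other 11 were within 2-fold, the median was 0.17 and 9 of 14 lay above 0 (8 of 14 with quantile scaling). Of these 11, Tagln2 and Msn also had a kept probe set past 2-fold higher (1.72 and 1.46), and none had one 2-fold lower. Over all kept probe sets, too, higher ones were the more frequent (3.48% higher and 2.58% lower). No direction is therefore read from this count. Fibronectin (Fn1) had signals of 7727 and 6782 (-0.19). The 2-fold differences in this list thus lay on both sides of 0.

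Markers of other cell types are given beside Vim. Of the 12 fibroblast markers 2 were kept, Thy1 at -0.63 and Pdgfrb, a growth factor receptor, at -1.19. Both reached the filter only on the control array, which set their direction. Col1a1, Col1a2, Col3a1, Dcn and Lum did not reach the filter, and the summed signal of the list was 699 in shCtrl and 470 in shSin3a-1. Of the 14 markers of primitive endoderm, an extraembryonic lineage of the blastocyst, 9 were kept. Of these, 4 (Sox17, Pdgfra, Sox7 and Gata6) reached the filter only in shSin3a-1, which set their place above 0. The other 5 (Dab2, Lama1, Lamb1, Col4a1 and Col4a2) reached it on both arrays and lay at 0.51 to 0.68 by brightest probe set. Sox17, a transcription factor of endoderm, was at least 4.73-fold higher (41.1, under the floor, in shCtrl and 221 in shSin3a-1), and Pdgfra, a receptor, was 2.24-fold higher. The Sox17 probe set has the suffix _x and may also detect other transcripts. The summed signal of the list was 3527 in shCtrl and 5431 in shSin3a-1, while the markers Gata4, Foxa2, Hnf4a, Afp and Ttr did not reach the filter; of these, Hnf4a (57.9 and 14.3) and Ttr (64.1 and 26.9) had the higher signal in shCtrl. The part of such cells in the Vim difference was not tested. Of 8 streak and mesoderm markers on the array none was kept, and the 3 kept neural markers lay at -0.97 to -0.35, of which 2 reached the filter only on the control array.

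**Figure D4:**
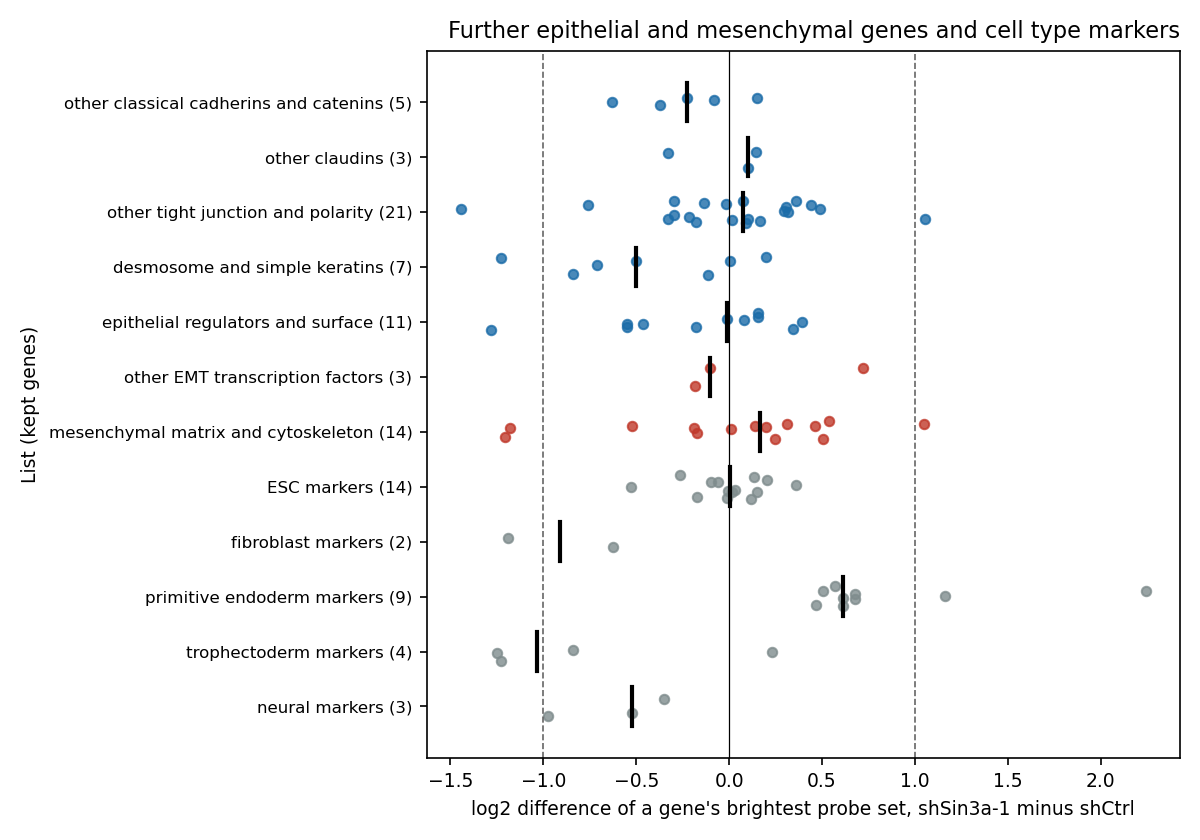
log2 difference (shSin3a-1 minus shCtrl) of each kept gene (points, brightest probe set) in the further lists, with the list's median as a black bar, the number of kept genes in brackets and dashed lines at 2-fold; blue lists are epithelial, red lists mesenchymal and grey lists cell type markers. The 9 kept primitive endoderm markers lie above 0, 4 of them because they reached the filter only in shSin3a-1, and the keratin and desmosome list has its median at -0.50.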

How the data were processed

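RNA of E14 cells from 2 groups was hybridised to 1 Affymetrix 3′ expression array each. The authors deposited MAS5 signals, intensity values on a linear scale for which the submitters' processing notes name MAS5 and Affymetrix Expression Console, without versions. Both arrays had a trimmed mean of 500 with 2% of values left off at each end. Mismatch subtraction spreads MAS5 values widely near background, and with 1 array per group the number of arrays limits the precision.

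Of 45101 probe sets, 64 control probe sets were left out of percentiles and counts. Gene symbols came from the platform annotation (34958 probe sets with 1 symbol) and were updated by Entrez identifier through RefSeq of GRCm38.p6, where 34754 matched. The files name no genome build; coordinates are those of the RefSeq promoter table.

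The deposited scaling was kept because the log2 75th percentiles differed by 0.0077 and 42 spike-in controls by a median of -0.0028; the medians, which lie near background, differed by -0.11 (shSin3a-1 minus shCtrl). Differences are therefore 0.11 higher with median centring. Filter, floor and fold rules are given with the results. Where a probe set was under the floor on 1 array, the floor took its place and the fold is a bound ("at least"); under it on both, no difference was formed. A gene outside the 10 was read by its brightest probe set (highest mean of the log2 values).

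The genes named are the 10, all probe sets; Sin3a, Pou5f1, Cdh3, Ctnna1, Ctnnb1, Ctnnd1, Jup, Cldn3, Cldn7, Ocln, F11r, Dsp, Krt8, Krt18, Esrp1, Grhl2, Ovol2, Snai2, Twist1 and Fn1 whatever their values; and up to 3 kept genes per direction at 2-fold or more from each further list; 1 other gene of this rule is not reported here. Thy1, Tead4, Hmga2, Tagln2, Msn, Esrrb, the markers named below the filter and those named by the array on which they reached it were chosen after their values were seen. Members, lists and rules were chosen with earlier results of these data known. The rules were tested on simulated data in which large changes were added to bright probe sets only and the noise was small. That simulation does not test them at dim signals. Analyses used Python 3.11.15, pandas 2.3.3, NumPy 2.4.6, SciPy 1.17.1 and statsmodels 0.14.6 (loess).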

Additional observations from a re-analysis of the deposited data

Results flagged for a closer look

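The control probe sets for 18S ribosomal RNA, which belong to no comparison above, were all 2-fold or more higher in shSin3a-1 than in the control array. The 3′ probe set read 2488 in the control and 8737 after knockdown (log2 difference 1.81). The middle probe set had 4987 and 14963 (1.59), and the 5′ probe set had 8695 and 17515 (1.01).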

How the results depend on the processing

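The median of the epithelial probe sets was below 0 under all 10 alternatives (-0.40 to -0.17). Leaving out the filter or changing the floor could not move it, because all 6 probe sets were kept and lay above the floors. The filter set the place of Cldn6, and no direction is read from this median. The count of 1 member probe set at 2-fold became 2 with median centring, both Vim, 5 at a threshold of 1.5-fold (3 higher, 2 lower) and 0 at 3-fold, and was 1 under each other alternative. The mesenchymal and repressor median of 0.21 was 0.82 when the filter was raised to the 75th percentile of signal and -0.33 without suffixed probe sets, because these choices change how many of the probe sets are from Vim. By brightest probe set, Cdh1 (-0.40 to -0.29), Cldn4, Cldn6, Zeb1 and Vim (0.72 to 1.11) kept their direction under every alternative that gave them a value, as did Tjp1. For Cldn6 the filter had set the direction. Leaving out the filter or changing the floor could not alter these values, nor could the mean of all probe sets for genes with 1 probe set. The unchanged directions are therefore a weak check. Epcam turned to -0.43 and Cdh2 to 0.15 in the mean of all probe sets. Without suffixed probe sets Epcam and Tjp1 had none left. No paired analysis was possible because each group has 1 array, and no replicate could be left out. Signal over background limits Snai1, Zeb2, Cdh2 and Cldn6.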
